A study of Mus musculus with 6 samples.

Results

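The 6 genes described here, Grin1, Grin2a, Grin2b, Grin2c, Grin2d and Grin3a, encode subunits of the NMDA receptor and were picked out by gene symbol. All 6 were listed in each table analysed here, among 19006 mouse genes in the bulk SCRB-seq table, 21987 in the bulk SMART-Seq2 table, 21608 in each of the plate tables of batches 1 and 2, 23295 in the table that sets FFPE beside frozen nuclei, and 19905 in the droplet table. The tissue was brain of C57BL/6J mice aged 8 to 12 weeks, labelled cortex, and the labels name no transgene or drug for any group. FFPE nuclei came from formalin-fixed, paraffin-embedded tissue cut as 50 µm scrolls. The wax was removed in 1 of 3 ways, with heated mineral oil, with heated xylene or with xylene at room temperature. Bulk wells held sorted pools of nuclei: the SCRB-seq plate had 64 wells of 10 or 100 nuclei (16 for each wax removal and 16 frozen), and the SMART-Seq2 set had 12 wells of 10, 50 or 100 nuclei (3 for each and 3 frozen). The plate libraries were SMART-Seq2 of single nuclei, 98 FFPE nuclei in batch 1, 134 in batch 2 and 137 frozen nuclei, and the droplet library held 7031 FFPE nuclei. Frozen wells and nuclei were named in the annotation tables and have no GEO sample of their own.

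The NMDA receptor is a glutamate-gated cation channel of excitatory synapses. Each receptor contains the obligatory Grin1 subunit, which binds glycine or D-serine, together with Grin2 subunits, which bind glutamate, or Grin3 subunits, which bind glycine. The Grin2 subunits set the channel's kinetics: Grin2b is prominent in the forebrain from early development, Grin2a rises as the brain matures, Grin2c is known from cerebellar granule neurons and from some glia, and Grin2d from brainstem, diencephalon and some interneurons. Grin3a lowers calcium permeability of the receptors that hold it.

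In both bulk assays Grin2b and Grin2a counts were lower in FFPE than in frozen nuclei and Grin2c counts were higher. Grin2b also differed between ways of removing the wax in the SCRB-seq wells, with the lowest levels after mineral oil. Grin1 was near its test threshold in SCRB-seq wells and did not pass it in SMART-Seq2 wells. Grin2d and Grin3a gave few counts. In the same samples, markers of cerebellar granule neurons were high in FFPE and low in frozen libraries, and markers of cortical excitatory neurons were lower in FFPE. The wells of a group were not said to come from separate animals, so p-values measure the spread between wells, which may be technical.

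All 6 genes lie on the minus strand in the GRCm38 mouse genome with the GENCODE M21 annotation. Grin1 spans chr2:25291181-25319187 (28.0 kb), Grin2a chr16:9567898-9995560 (427.7 kb) and Grin2b chr6:135713233-136173511 (460.3 kb). Grin2c spans chr11:115249169-115267243 (18.1 kb), Grin2d chr7:45831883-45878378 (46.5 kb) and Grin3a chr4:49661611-49845744 (184.1 kb). The antisense gene Grin1os lies within Grin1 and is in neither bulk table. Kdelr1 overlaps Grin2d on the opposite strand, with 59 counts in the SCRB-seq wells and 253 in the SMART-Seq2 wells, against 32 and 48 counts of Grin2d. Since nothing in the sources states that counting used the strand, the few Grin2d counts are uncertain.

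Depth differed between assays. SCRB-seq wells held 7512 to 167144 mouse counts, and the 8 wells of 10 nuclei after mineral oil were the shallowest, with 115185 counts in all. SMART-Seq2 wells held 270363 to 942966 counts. Plate nuclei had median totals of 180584 counts in FFPE batch 1, 42747 in FFPE batch 2 and 255329 in frozen nuclei, while droplet nuclei had 235 to 998 UMIs (molecule counts), with a median of 325. Of 8 granule neuron markers fixed for this work, 7 were in the tables. Their summed level in SCRB-seq wells ran from 374 to 6922 CPM (mouse counts scaled to 1e6 per library) in FFPE and from 0 to 186 in frozen wells, where the defining genes Gabra6 and Cbln3 had 0 counts. In SMART-Seq2 wells it ran from 2260 to 7035 CPM in FFPE and from 122 to 226 in frozen wells, with Gabra6, Cbln1, Cbln3 and Zic1 at 0. The 6 excitatory neuron markers summed to 95.8 to 866 CPM in FFPE and to 1248 to 2352 CPM in frozen SCRB-seq wells. The FFPE libraries labelled cortex thus carried cerebellar granule markers at levels that the frozen libraries did not. In bulk wells, fewer nuclei of a type and less RNA per nucleus cannot be told apart.

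Grin1, the obligatory subunit, was compared first. In the 16 frozen SCRB-seq wells it ran from 108 to 582 CPM with a median of 368, and in the 48 FFPE wells from 0 to 1559 CPM with a median of 152, 6 of them at 0. The groups overlapped, and the single highest well of the whole set was an FFPE well of 10 nuclei after mineral oil. The mean was 382 ± 133 CPM (SD, n = 16 wells) in frozen wells, against 244 ± 391 after mineral oil, 278 ± 285 after heated xylene and 178 ± 125 after room-temperature xylene. The log2 fold change of FFPE over frozen was -0.77 (SE 0.35), with an adjusted p of 0.0510 (edgeR, quasi-likelihood F test, Benjamini-Hochberg over all tested genes), just short of the threshold of 0.05. It passed with DESeq2 size factors (-1.33, adjusted p 0.000883), a scaling that also moved the median log2 fold change of all tested genes from 0.00 to -0.58. It also passed with nuclei number as a term (edgeR adjusted p 0.0482) and in wells of 100 nuclei alone (0.0445), and not in wells of 10 alone (0.257) or without the filter on low counts (0.153).

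In SMART-Seq2 wells Grin1 showed no difference past the test. The frozen wells of 10, 50 and 100 nuclei held 304, 314 and 253 CPM. After mineral oil the same 3 sizes held 1091, 452 and 256 CPM, after heated xylene 85.9, 216 and 150, and after room-temperature xylene 130, 295 and 334. The FFPE wells thus lay on both sides of the frozen ones. FFPE over frozen gave -0.27 (SE 0.49, edgeR adjusted p 0.884).

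Grin2b, the subunit with the most counts in frozen SCRB-seq wells, showed the largest fall. Frozen wells ran from 760 to 1863 CPM, with a median of 1070. Mineral oil wells ran from 0 to 273 CPM with a median of 0, heated xylene wells from 18.7 to 856 with a median of 130, and room-temperature xylene wells from 0 to 491 with a median of 282. Only 2 of the 48 FFPE wells, both after heated xylene, reached the lowest frozen well. FFPE over frozen was -2.81 on the log2 scale (SE 0.30, edgeR adjusted p 7.05e-13). Among all 1478 genes tested, 58.0% passed in this contrast, 30.2% as higher and 27.7% as lower in FFPE, so a call by itself is common here. With DESeq2 size factors that split moved from 447 higher and 410 lower to 309 higher and 674 lower, and Grin2b remained lower (-3.40).

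The SMART-Seq2 wells gave the same direction for Grin2b with no overlap. Frozen wells of 10, 50 and 100 nuclei held 1187, 1317 and 1134 CPM. Mineral oil wells held 21.5, 59.1 and 273 CPM, heated xylene wells 634, 332 and 405, and room-temperature xylene wells 242, 586 and 459. Each of the 9 FFPE wells was below each of the 3 frozen wells. The log2 fold change was -2.34 (SE 0.46, edgeR adjusted p 0.00262), in a contrast where 4.09% of the 9092 tested genes passed, 1.45% as higher and 2.64% as lower.

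Grin2a, the subunit of the mature forebrain, was lower in FFPE by a smaller fold than Grin2b. Its frozen SCRB-seq wells ran from 162 to 1268 CPM with a median of 974, and the FFPE wells from 0 to 2370 CPM with a median of 320. Apart from 1 frozen well with 3 counts, frozen wells were at 625 CPM or more, while FFPE wells spread over the whole range. The log2 fold change was -1.15 (SE 0.28, edgeR adjusted p 2.87e-04), a call that was lost in wells of 10 nuclei alone (adjusted p 0.0838). In SMART-Seq2 the frozen wells of 10, 50 and 100 nuclei held 1532, 1609 and 1740 CPM. The FFPE wells held 281 to 1190 CPM and did not overlap them. There the fold change was -1.27 (SE 0.31, edgeR adjusted p 0.0196), and the call was lost without any 1 of the frozen wells of 10, 50 or 100 nuclei (adjusted p 0.109, 0.114 and 0.238). Leaving out the 100-nucleus well of room-temperature xylene also ended it (0.0582).

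Grin2c moved the other way. In frozen SCRB-seq wells it gave 6 counts in all, 12 of 16 wells being at 0 and the highest at 56.8 CPM from 1 count. In FFPE wells it gave 400 counts, with means of 117 ± 135 CPM after mineral oil, 37.0 ± 52.6 after heated xylene and 188 ± 144 after room-temperature xylene (SD, n = 16 wells each). The fitted log2 fold change was 3.72 (SE 0.65, edgeR adjusted p 8.84e-07). The pooled level in CPM was 23.9 times the frozen one in FFPE, with a 95% interval from 10.9 to 65.4 that covers counting error only. Over the same wells, Gabra6 had 902 FFPE counts and no frozen count, which is 108-fold higher when the frozen wells together are set to 3 counts. The lower 95% limit of its ratio was 87.3, for counting error only.

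Grin2c repeated this in SMART-Seq2. Frozen wells held 0, 0 and 4.3 CPM at 10, 50 and 100 nuclei, which is 2 counts in all. The 9 FFPE wells held 25.4 to 516 CPM, each above each frozen well. The fitted log2 fold change was 6.56 (SE 1.27, edgeR adjusted p 0.00239) and the pooled ratio 142, with a counting interval from 39.1 to 1170. All 7 tested granule markers were higher in FFPE in both assays. Pooled ratios of those with more than 3 frozen SCRB-seq counts were 6.79 for Etv1, 16.0 for Chn2 and 40.2 for Zic1, the last from 7 frozen counts (interval from 19.4 to 100.3). In SMART-Seq2 wells Etv1 was at 4.71 and Chn2 at 25.8, while Zic1 and Gabra6 had no frozen count. With the frozen wells together set to 3 counts, Zic1 was 74.7-fold and Gabra6 177-fold higher, with lower 95% limits of 60.6 and 144.

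Markers of other cell types also differed between FFPE and frozen wells. In SCRB-seq 2 of 3 tested astrocyte markers were higher in FFPE, Slc1a3 (2.57) and Aldoc (1.91), as was the 1 inhibitory neuron marker tested, Gad1 (2.53). The 1 Purkinje neuron marker tested was lower (-2.77). The 5 astrocyte markers measured summed to 288 to 5843 CPM in FFPE (median 1253) and 186 to 898 in frozen wells (median 517). The 5 oligodendrocyte markers summed to 0 to 13209 CPM (median 1142) and 64.7 to 770.3 (median 362). In SMART-Seq2 edgeR called 0 of 5 astrocyte markers (median 2.99), 0 of 4 inhibitory markers (median 2.33) and the 1 Purkinje marker, as lower (-2.56). The astrocyte sum there ran from 29.3 to 4437 CPM in FFPE and from 444 to 643 in frozen wells, where Aqp4 was at 0, and the oligodendrocyte sum had medians of 1299 and 118 CPM. The inhibitory marker sum ran from 254 to 1168 CPM in FFPE and from 18.0 to 355 in frozen SMART-Seq2 wells. The part of granule neuron, excitatory neuron and these other markers in the Grin2c, Grin2a and Grin2b results was not tested.

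Grin2d and Grin3a were sparse. Grin2d gave 15 counts in the frozen and 17 in the FFPE SCRB-seq wells, and 11 and 37 in the SMART-Seq2 wells. It was left out of all main tests by the filter on low counts. Of its 37 SMART-Seq2 FFPE counts, 35 fell in the heated xylene wells of 50 and 100 nuclei. Grin3a, the glycine-binding subunit, had 44 frozen and 70 FFPE counts in SCRB-seq and was left out there too. In the 8 frozen wells of 100 nuclei it was at 27.7 to 98.0 CPM, and in the 8 frozen wells of 10 nuclei it was at 0, which allows up to 10.2 CPM. In SMART-Seq2 wells it ran from 0 to 104 CPM in both FFPE and frozen wells (fitted log2 fold change -1.03 against a pooled ratio of 1.18, so the signs differ; SE 1.29, edgeR adjusted p 0.818).

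**Figure D1:**
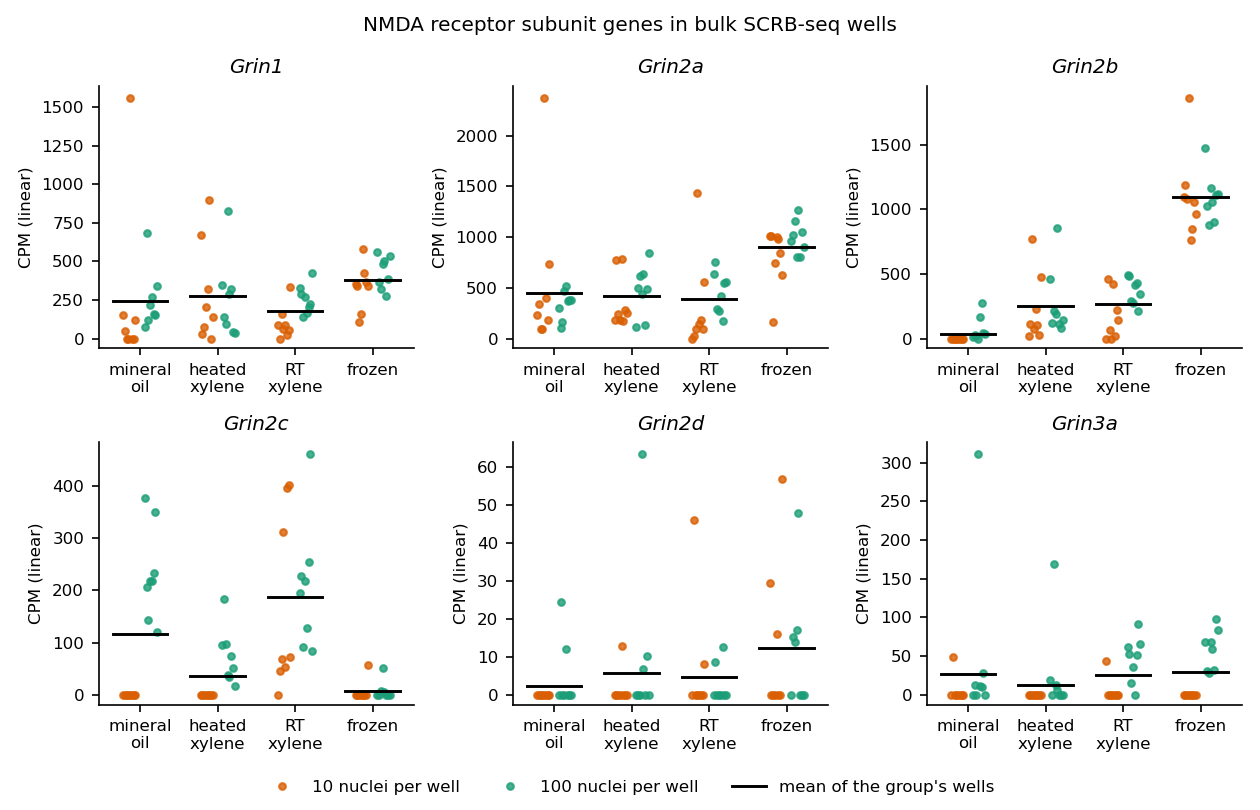
CPM of each gene in each SCRB-seq well (points, 10 nuclei in orange and 100 nuclei in green) for the 3 ways of removing wax and for frozen nuclei, with a bar at the mean of the 16 wells. Frozen wells lie highest for Grin2b, at 760 to 1863 CPM, and near 0 for Grin2c.

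**Figure D2:**
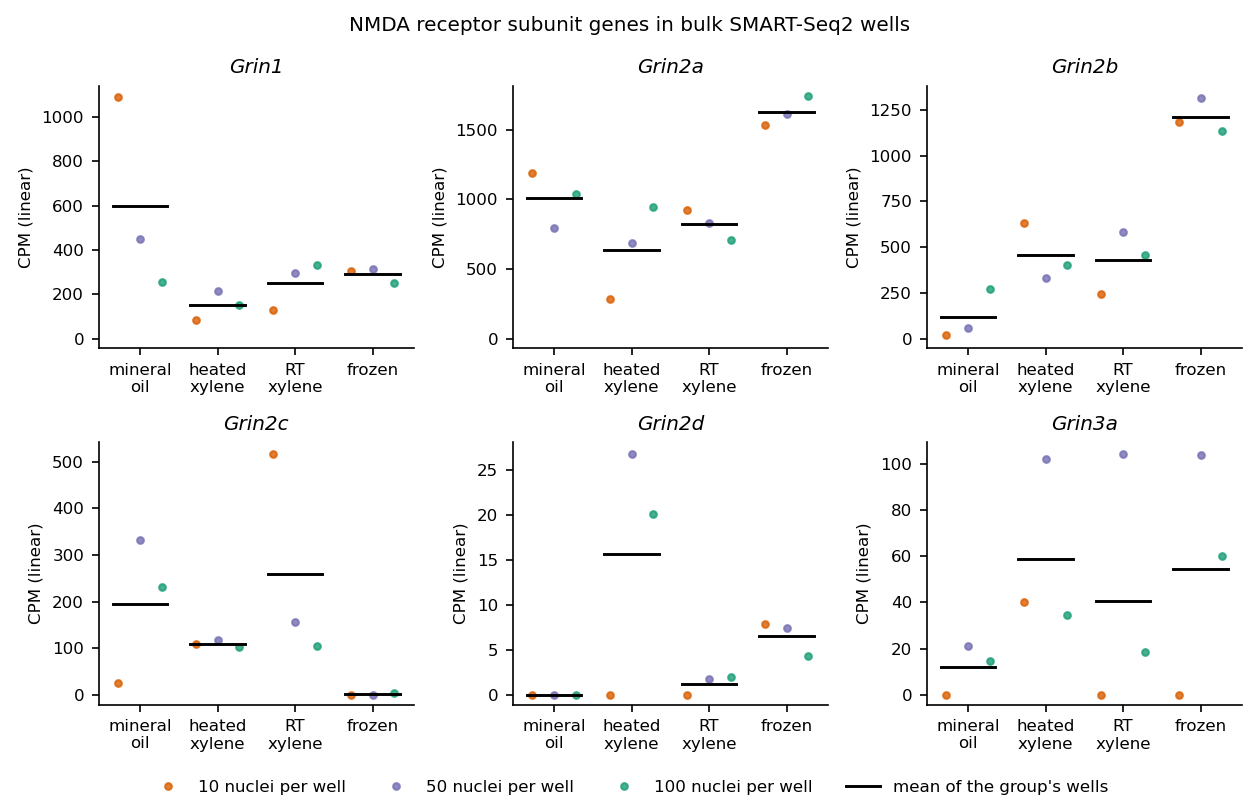
CPM of each gene in each SMART-Seq2 well by number of nuclei, with a bar at the mean of the 3 wells of a group. For Grin2a and Grin2b each frozen well is above each FFPE well, and for Grin2c each FFPE well is above each frozen well.

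SMART-Seq2 reads cover the transcript, so levels of different genes were compared there per length. Per kb of merged exon, the pooled frozen wells held 89.5 CPM per kb of Grin2a, 48.0 of Grin2b, 30.0 of Grin1, 2.80 of Grin3a, 1.01 of Grin2d and 0.244 of Grin2c. The order Grin2a, Grin2b, Grin1 held in each of the 3 frozen wells. In the pooled FFPE wells the values were 43.9 for Grin2a, 34.5 for Grin2c, 30.8 for Grin1 and 14.6 for Grin2b. Nuclear RNA also holds introns, and per kb of gene body Grin1 was first in frozen wells with 10.4 CPM per kb, ahead of Grin2a with 3.75 and Grin2b with 2.59.

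The next question, which the labels state, was how the ways of removing wax compare. In SCRB-seq wells 2 of the 4 tested members differed between mineral oil and heated xylene, where 8.52% of 1080 tested genes did (1.57% higher and 6.94% lower after mineral oil). Grin2b was lower after mineral oil (-2.22, SE 0.54, edgeR adjusted p 0.00467) and Grin2c was higher (1.76, SE 0.57, edgeR adjusted p 0.0400). The Grin2c call was lost with DESeq2 size factors (1.77, adjusted p 0.0667) and by DESeq2's Wald test (1.78, adjusted p 0.0523). Mineral oil against room-temperature xylene gave 1 member, Grin2b (-2.32, SE 0.54, edgeR adjusted p 0.00303), where 10.3% of genes passed (2.5% higher and 7.78% lower). Heated against room-temperature xylene gave 1 member, Grin2c, lower after heating (-2.25, SE 0.57, edgeR adjusted p 0.0177), where 1.94% of genes passed. Between the heated and room-temperature xylene groups Grin2b differed by -0.10 (SE 0.47, edgeR adjusted p 0.975). Grin1 and Grin2a passed in none of the 3 contrasts. Markers differed in the mineral oil contrasts too: Gad1 was lower against heated xylene (-2.78) and room-temperature xylene (-3.07), and so was the oligodendrocyte marker Mbp (-1.93 and -2.02). The 5 oligodendrocyte markers summed to a median of 182 CPM in mineral oil wells, against 1953 after heated and 1845 after room-temperature xylene. Of 7 granule markers, 0 passed against heated xylene (median 0.15) and 2 were higher against room-temperature xylene (median 0.92). The part of these markers in the Grin2b and Grin2c results was not tested. Each combination of method and nuclei number was 1 library pool of 8 wells, so a pool and a method cannot be told apart.

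Levels differed between the pools of 10 and of 100 nuclei. In the mineral oil pool of 10 nuclei Grin2b and Grin2c were at 0 in all 8 wells, which allows up to 26.0 CPM at 3 counts. In the mineral oil pool of 100 nuclei Grin2b ran from 0 to 273 CPM and Grin2c from 120 to 376. Grin2c was also at 0 in all 8 heated xylene wells of 10 nuclei, a limit of 6.82 CPM, while it ran from 17.7 to 183 CPM at 100 nuclei. After room-temperature xylene it was found at both sizes, from 0 to 402 CPM at 10 nuclei and from 84.8 to 460 at 100. The heated xylene pool of 10 nuclei held the granule markers at 2138 CPM, near the 2160 CPM of the pool of 100 nuclei, while its Grin2c count was 0.

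Zero counts were not particular to these genes in the mineral oil pool. Of 2741 genes with at least 50 counts in the mineral oil pool of 100 nuclei, 30.1% were at 0 in the pool of 10. The same share was 5.25% of 3335 genes after heated xylene, 1.27% of 3157 after room-temperature xylene and 0 of 3114 in frozen wells. Without the mineral oil pool of 10 nuclei, Grin2b no longer passed against heated xylene (-1.71, edgeR adjusted p 0.0747) or room-temperature xylene (-1.87, adjusted p 0.0503), and Grin2c still passed against heated xylene (2.45, adjusted p 0.00376). In wells of 100 nuclei alone Grin2b passed in both (-1.75 with adjusted p 0.0235, and -2.12 with adjusted p 0.00789).

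The difference between wells of 100 and 10 nuclei was also fitted as an interaction in edgeR over 2511 genes, which was chosen once the values were known. The adjusted p for Grin2b was 0.0187 in mineral oil against heated xylene, where 36.2% of genes passed, and 0.0380 in mineral oil against room-temperature xylene, where 39.2% did. For Grin2c it was 0.000599 in heated against room-temperature xylene, where 17.3% passed, and 0.000212 in mineral oil against room-temperature xylene. Each of these 4 values rests on a pool of 10 nuclei with 0 counts of the gene in all 8 wells, and each pool is 1 library. A dependence on the number of nuclei and a property of that pool cannot be told apart, so the fitted folds are not given. For FFPE against frozen no member passed, with adjusted p from 0.0963 for Grin2b to 0.940 for Grin1, where 16.6% of genes did.

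In SMART-Seq2 wells none of 8372 genes, and so 0.0%, passed in any contrast between methods by edgeR. At an unadjusted p under 0.05 there were 314, 199 and 379 genes, and DESeq2's Wald test called 16, 1 and 20, for mineral oil against heated xylene, heated against room-temperature xylene and mineral oil against room-temperature xylene. Grin2b was again lowest after mineral oil, at -2.05 (SE 0.76) against heated xylene and -1.81 (SE 0.76) against room-temperature xylene, with edgeR adjusted p of 1.00 for both. Grin1 was higher after mineral oil than after heated xylene by 2.04 (SE 0.70, adjusted p 1.00), with unadjusted p of 0.00710. Its mineral oil values were 1091, 452 and 256 CPM at 10, 50 and 100 nuclei.

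The make-up of the Grin2 counts shows the same shift without reference to other genes. A share of summed Grin2a, Grin2b, Grin2c and Grin2d counts moves with all 4 genes and is no level. In pooled frozen SCRB-seq wells Grin2b was 51.1% and Grin2a 48.0%, and Grin2c 0.270%. In pooled FFPE wells Grin2b was 29.8%, Grin2a 53.0% and Grin2c 16.5%. By method, Grin2b was 11.4% after mineral oil, 34.8% after heated xylene and 33.5% after room-temperature xylene, and Grin2c was 30.7%, 5.52% and 19.9%. Pooled shares weight deep wells most, and the means over wells were 4.87% ± 8.57, 31.9% ± 22.6 and 35.0% ± 21.1 for Grin2b (SD over 16, 16 and 15 wells with Grin2 counts). For Grin2c the means were 19.0% ± 21.7, 5.50% ± 8.12 and 23.7% ± 17.7, so its order between mineral oil and room-temperature xylene turned, within the spread of the wells. After mineral oil the Grin2c share was 0 in the pool of 10 nuclei and 36.1% in that of 100. In SMART-Seq2 wells Grin2b was 42.6% ± 2.90 (SD, n = 3 wells) in frozen and 25.6% ± 18.6 (n = 9) in FFPE, and Grin2c was 0.0496% ± 0.0859 against 13.5% ± 9.62. The spread in FFPE wells was wide: Grin2b made up 1.74% of the Grin2 counts in the mineral oil well of 10 nuclei and 62.0% in the heated xylene well of 10.

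**Figure D3:**
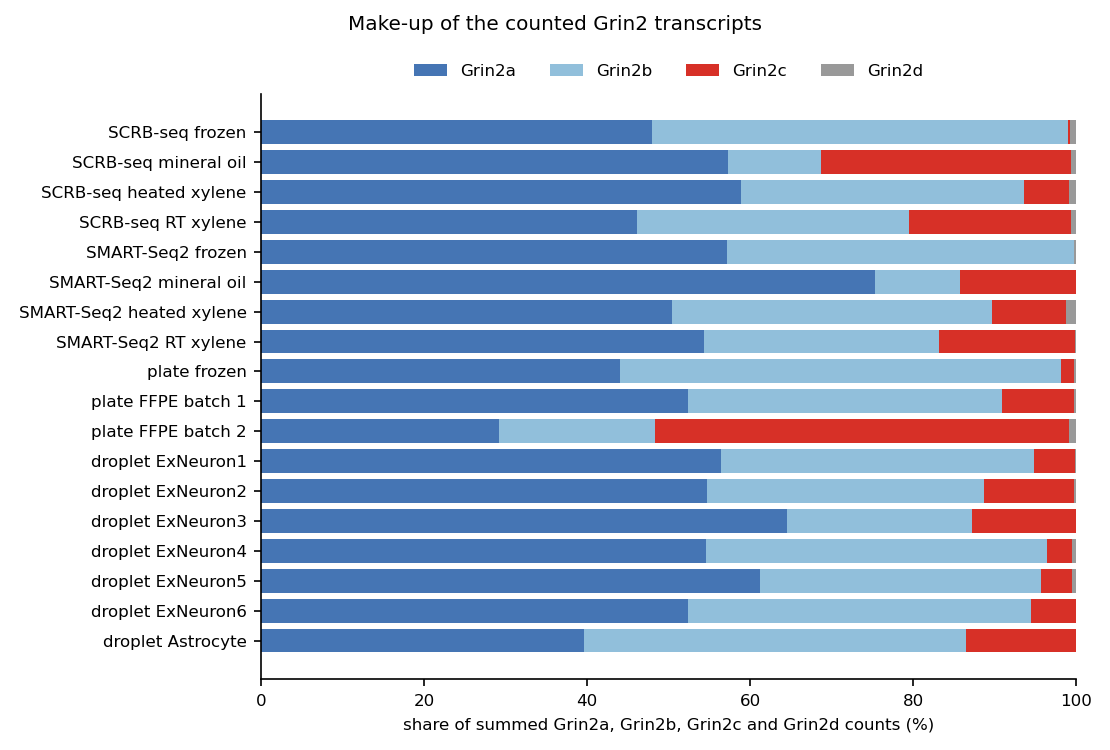
Share of the summed Grin2a, Grin2b, Grin2c and Grin2d counts (percent, x axis) in pooled wells, pooled plate nuclei and droplet classes. Grin2c is 0.270% in frozen and 16.5% in FFPE SCRB-seq wells. In pooled plate nuclei it is 1.57% in frozen nuclei, 8.78% in FFPE batch 1 and 50.7% in FFPE batch 2. In the same order, its means over plate nuclei with Grin2 counts are 6.38%, 20.2% and 27.8%.

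Single nuclei on plates were described without a test, since each group is 1 library set. The annotation gives FFPE nuclei as L and frozen nuclei as R hemisphere, so hemisphere and preservation cannot be told apart. Intervals below are exact 95% intervals that cover counting error only. In frozen nuclei the pooled levels were 342 CPM for Grin1, 934 for Grin2a, 1146 for Grin2b, 33.3 for Grin2c, 5.29 for Grin2d and 109 for Grin3a. Both frozen plates gave like values for Grin1 (359 and 326 CPM), Grin2a (836 and 1027) and Grin2b (996 and 1290). Grin2c was at 47.1 CPM (44.7 to 49.6) on the first and had an interval of 18.5 to 21.6 CPM on the second. The first plate held 1462 Grin2c counts and the second 652, and a single nucleus of the first held most of its counts. The difference between the plates in Grin2c thus rests on that nucleus.

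Grin2b was lower in both FFPE batches. It was at 528 CPM (518 to 539) in batch 1 and 238 (229 to 248) in batch 2, which is 0.461 and 0.208 of the frozen level. Grin2c was higher in both, at 120 CPM (115 to 126) and 630 (614 to 645), 3.62 and 18.9 times the frozen level. Grin2a was at 0.770 of the frozen level in batch 1 and 0.387 in batch 2. Grin1 was at 0.531 in batch 1 (0.512 to 0.552) and at 1.02 in batch 2 (0.986 to 1.06), an interval that covers 1. Grin3a was at 0.621 and 0.742. Grin2d was at 0.752 (0.571 to 0.976) in batch 1 and 2.14 (1.71 to 2.65) in batch 2, but 3 nuclei of each batch had a count, and 1 of them held 95.7% and 74.6% of the counts. Batch 2 shares its sample batch label with the frozen plates, and batch 1 does not. The granule markers summed to 362 CPM in frozen nuclei, 3483 in batch 1 and 2587 in batch 2.

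Few nuclei carried much of these sums. A single nucleus held 35.0% of the Grin2c counts of batch 2, 26.2% of those of batch 1 and 53.1% of those of frozen nuclei. The highest Grin2c nucleus of batch 2 was at 25830 CPM, while the median nucleus was at 0. For Grin2b the highest nucleus held 9.11% of the frozen counts, 15.4% of batch 1 and 23.2% of batch 2. The plates within batches also differed: Grin2a was at 210 CPM in 28 nuclei of one batch 1 plate and 811 in 70 nuclei of the other, and Grin2c was at 1008 and 281 CPM on the 2 plates of batch 2 (67 nuclei each).

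The share of nuclei with a count gave a second view. In frozen nuclei 90.5% had Grin2a (84.3 to 94.9), 86.9% Grin2b (80.0 to 92.0), 79.6% Grin1 (71.8 to 86.0), 47.4% Grin3a, 25.5% Grin2c and 18.2% Grin2d. In batch 1 the shares were 52.0% for Grin2a, 39.8% for Grin2b, 36.7% for Grin1 and 24.5% for Grin2c, and in batch 2 they were 67.2%, 36.6%, 50.7% and 41.0%. Since frozen nuclei were deeper, each nucleus was also thinned to 10000 counts, which left out 10 frozen nuclei and 8 in each FFPE batch. Thinned, Grin2b was found in 73.4% of frozen nuclei, 28.8% of batch 1 and 24.5% of batch 2. Grin2c was found in 9.55%, 17.5% and 29.8%. Grin2b detection was thus lower in both FFPE batches with and without thinning. Grin2c detection was higher in batch 2 both ways, while in batch 1 it was slightly below frozen unthinned and above it thinned.

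Co-detection and the number of detected members were counted without thinning, though frozen nuclei were deeper. Such counts depend on each gene's own share of nuclei, and no association between genes beyond that was tested. In frozen nuclei 115 of 137 had both Grin2a and Grin2b, and 106 had both Grin1 and Grin2a. Of 35 frozen nuclei with Grin2c, 33 also had Grin2b. In batch 2, 20 nuclei had both Grin2b and Grin2c, 29 had Grin2b alone of the pair and 35 Grin2c alone. In batch 1 those numbers were 6, 33 and 18. Frozen nuclei had a mode of 3 detected members (42 of 137 nuclei), batch 2 of 2 members (40 of 134), and 17 of 98 nuclei of batch 1 had none.

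**Figure D4:**
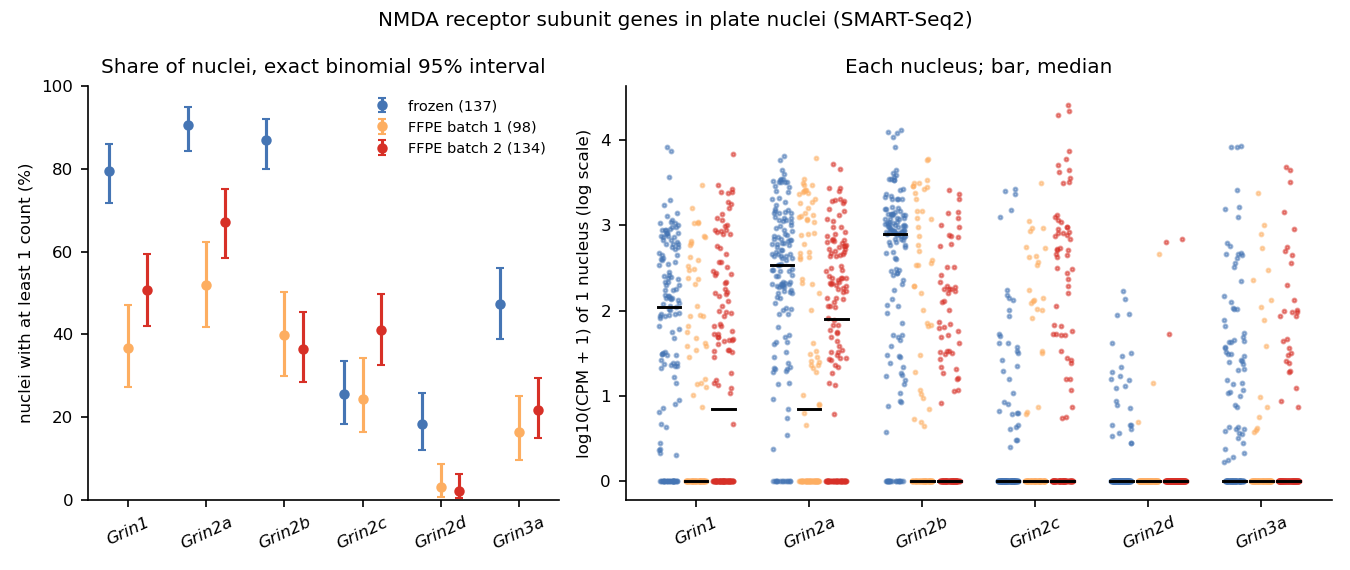
Left, percent of plate nuclei with at least 1 count of each gene with exact 95% intervals; right, log10(CPM + 1) of each nucleus with the median as a bar. Frozen nuclei (blue) have the highest share for Grin1, Grin2a and Grin2b, and batch 2 (red) has the highest share for Grin2c, 41.0%.

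FFPE nuclei were also split by Gabra6, a granule neuron marker, and in each batch the pooled Grin2b level was lower and Grin2c higher with it. The 32 nuclei of batch 1 with a Gabra6 count held 25.3 CPM of Grin2b (21.6 to 29.4), 183 of Grin2c (173 to 193) and 924 of Grin2a. The 66 nuclei without one held 849 CPM of Grin2b (832 to 867), 80.7 of Grin2c (75.4 to 86.3) and 588 of Grin2a. Grin2a was thus counted in both sets, while the pooled Grin2b level was far lower with Gabra6, where 28.1% of nuclei had a Grin2b count against 45.5% without. The 49 nuclei of batch 2 with a Gabra6 count held 186 CPM of Grin2b (174 to 198), 1027 of Grin2c (999 to 1056) and 600.1 of Grin2a. The 85 without one held 289 CPM of Grin2b (274 to 304), 243 of Grin2c (230 to 257) and 130.0 of Grin2a. The share of batch 2 nuclei with a Grin2b count went the other way, 42.9% with Gabra6 and 32.9% without. The nucleus with the most Grin2c counts of batch 2 was in the set with Gabra6. The pooled Grin2c levels of both batches rest in part on single nuclei, which their intervals do not cover. Gabra6 was counted in 1 of 137 frozen nuclei.

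The table that sets FFPE beside frozen nuclei holds 143 FFPE nuclei, the 134 of batch 2, with identical values over 21117 shared genes, and 9 more that held 102136 to 4973791 counts each. The 9 held more counts (13521527) than the other 134 together (10094688), and Grin2c was at 93.5 CPM in the 9 and 630 CPM in the 134. With them Grin1 was at 226 CPM, Grin2a at 303, Grin2b at 296 and Grin2c at 323. The 9 held 4588 of the 6992 Grin2b counts, and with them the Gabra6 split of Grin2b turned, to 317 CPM in the 56 nuclei with Gabra6 and 237 in the 87 without.

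Frozen nuclei were also split by neuron class. The 17 nuclei with Slc17a7, the vesicular glutamate transporter of cortical excitatory neurons, and no Gad1 or Gad2 count held 1729 CPM of Grin2a, 1342 of Grin2b, 626 of Grin1 and 11.9 of Grin3a. The 36 nuclei with Gad1 or Gad2, which make GABA, and no Slc17a7 count held 803, 1211, 209 and 278 CPM. Grin3a was the member that was higher in the second set, with 56.9% of its counts in 1 nucleus. Neither marker was counted in 34 nuclei and both in 50, so most nuclei fell outside these sets.

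The droplet library gave the members in 12 annotation classes of 1 FFPE sample. The class names are the authors'. 6 of them are named ExNeuron, for excitatory neurons, and no class is named for inhibitory or granule neurons. The 6 excitatory neuron markers summed to 3202 CPM in ExNeuron1, 2566 in ExNeuron2, 2163 in ExNeuron3 and 1766 in ExNeuron4. They summed to 2774 CPM in endothelial nuclei and 2337 in astrocytes, so of these ExNeuron classes only ExNeuron1 was above endothelial nuclei. Over the 6 ExNeuron classes (5580 nuclei) the pooled levels were 901 CPM for Grin2a (861 to 943), 556 for Grin2b (524 to 589), 537 for Grin1 (506 to 570), 108 for Grin2c (94.5 to 123) and 74.0 for Grin3a (62.8 to 86.7). Grin2d had 6 UMIs in all 7031 nuclei. In the 6 other classes (1451 nuclei) Grin2a was at 436 CPM, Grin2b at 371, Grin1 at 354, Grin2c at 105 and Grin3a at 149.

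Free RNA in droplets gives counts in cells that do not make a gene. Microglia and endothelial nuclei, 267 in all, served as that background. A Grin2a UMI was found in 26.1% of ExNeuron nuclei (median 325 UMIs) and in 12.7% of background nuclei (median 296 UMIs), or 24.0% and 13.5% after thinning to 300 UMIs. For Grin2b the shares were 16.5% and 7.12% (15.0% and 5.37% thinned). For Grin1 they were 17.7% and 11.2% (14.7% and 12.4% thinned), and for Grin2c 3.89% and 4.49%. Over the 6 ExNeuron classes pooled, Grin2a and Grin2b were thus above the background, the thinned Grin1 shares were close, and the Grin2c share was not above it. Thinning left out 2044 ExNeuron and 141 background nuclei.

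Grin2a and Grin2b did not keep one ratio across the neuron classes. Grin2a was highest in ExNeuron1 at 981 CPM (915 to 1051) and lowest in ExNeuron2 at 755 (666 to 852), and its intervals overlapped for neighbours in that order. Grin2b was also highest in ExNeuron1, at 668 CPM (614 to 726), but it was lowest in ExNeuron3 at 326 (272 to 388), where Grin2a was at 924. That Grin2b interval overlapped the background's (161 to 388). As a share of the Grin2 counts, Grin2b was 22.8% in ExNeuron3 and 34.0% to 42.1% in the other ExNeuron classes. The Grin2c level in ExNeuron3 was 182 CPM (142 to 230), the highest of the 12 classes, though its interval overlapped those of ExNeuron2 (153 CPM), astrocytes (141) and the background (151 CPM, 80.6 to 259). The granule markers summed to 3510 CPM in ExNeuron3, 2615 in ExNeuron2 and 1572 in ExNeuron1, against 2173 in endothelial nuclei, which are part of the background. Their part in these class levels was not tested.

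Grin3a had a pattern of its own among the classes. Oligodendrocyte precursors held 405 CPM (275 to 575), ExNeuron4 248 (195 to 311), astrocytes 167 (118 to 228) and ExNeuron5 112 (63.0 to 186), against 34.9 (7.20 to 102) in the background and 23.0 (13.8 to 35.9) in ExNeuron1. The intervals of the precursors and ExNeuron4 overlapped. A Grin3a UMI was found in 13.5% of precursor nuclei (13.2% thinned) and 8.80% of ExNeuron4 nuclei (6.25% thinned), against 1.12% of background nuclei (0.531% thinned). ExNeuron4 also held more of the inhibitory neuron markers than ExNeuron1, 880 against 226 CPM, but ExNeuron6 held 923 CPM of them with 49.2 CPM of Grin3a. Grin1 ran from 488 to 603 CPM in the 6 ExNeuron classes with overlapping intervals, and was at 312 (244 to 392) in astrocytes. Grin2b in astrocytes, at 491 CPM (406 to 590), was above the background (256, 161 to 388), and Grin2a there, at 414, was not.

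**Figure D5:**
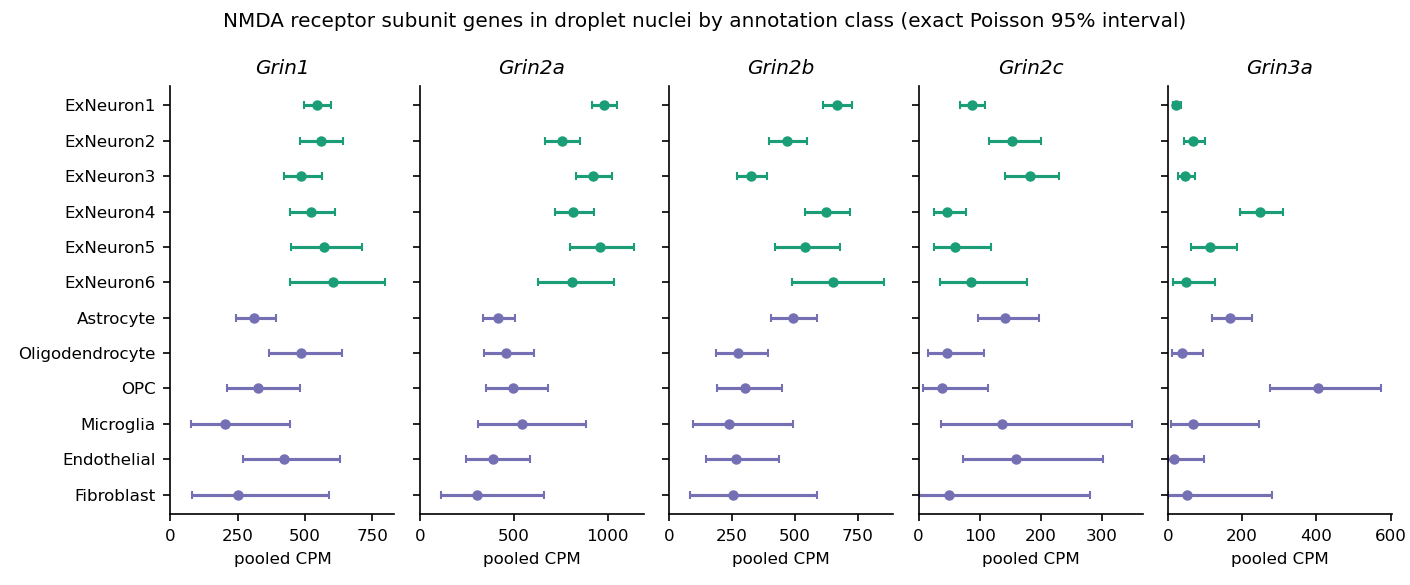
Pooled CPM with exact 95% Poisson intervals for 5 members in the 12 droplet classes (neurons green, others purple; the x axes differ). Grin2b is lowest among neurons in ExNeuron3, at 326 CPM, and Grin3a is highest in oligodendrocyte precursors, at 405 CPM.

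By a fixed rule, the genes whose levels were most like each member were taken over the 11 classes with at least 50 nuclei, by Pearson r of log2(CPM + 10) among 2733 other genes with at least 200 UMIs. These are descriptions over classes that share 1 library and differ in depth. For Grin1 they were Slc22a17 (r = 0.94), Acbd6 (0.90) and Htr1f (0.89), and for Grin2a Clstn2 (0.97), Syt1 (0.93) and Msra (0.88). For Grin2b they were Erc2 (0.90), 5730522E02Rik (0.90) and Epha6 (0.89), and for Grin2c Lpp (0.90), Chd9 (0.88) and Vps35 (0.84). For Grin3a they were Frmd4a (0.86), Lhfpl3 (0.85) and Mark3 (0.83). Between members, Grin1, Grin2a and Grin2b had r of 0.61 to 0.65 with each other, and Grin2c had r of -0.50 with Grin3a. Grin2d had too few UMIs.

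Genes that act around the receptor were read from 4 lists in the FFPE against frozen contrast. The scaffolds that anchor receptors at the postsynaptic density were mostly lower in SCRB-seq, where 7 of 10 tested were lower and 1 higher (median -1.34), beside 27.7% lower and 30.2% higher over all genes with a median of 0.00. In SMART-Seq2 3 of 12 passed, all lower (median -0.52), beside 2.64% lower over all genes with a median of -0.13. Dlgap2, an adaptor of the density, was lower in both assays (-3.15, SE 0.28, edgeR adjusted p 1.50e-16, and -2.67, SE 0.47, adjusted p 9.74e-04). In SCRB-seq Dlgap3 (-1.90) and Homer1 (-1.63) were lower, and Dlgap1, of the same family as Dlgap2, was higher (1.99, SE 0.22). In SMART-Seq2 the other 2 that were lower were Shank2 (-3.22) and Dlg2 (-1.26), which binds Grin2 tails. Excitatory neuron markers were lower in the same contrast, 3 of 3 tested in SCRB-seq (median -2.93) and 3 of 5 in SMART-Seq2 (median -3.17). All 7 tested granule markers were higher in both assays. The part of these markers in the 4 lists was not tested.

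Of signalling genes downstream of the receptor, 4 of 10 tested in SCRB-seq were higher and 3 lower (median -0.16), near the 30.2% and 27.7% over all genes. In SMART-Seq2 1 of 17 was higher and 5 lower (median -0.68), beside 1.45% and 2.64% over all genes. Camk2a, the kinase of forebrain excitatory neurons that binds Grin2b, was lower in both (-3.30, SE 0.29, edgeR adjusted p 1.83e-16, and -3.08, SE 0.41, adjusted p 3.85e-05). Nrgn, a calmodulin-binding protein of the same neurons, was also lower in both (-2.93 and -3.17). Both are among the 6 excitatory neuron markers. Camk4, a nuclear calmodulin kinase, was higher in both (1.20 and 1.84). The other SCRB-seq genes past the test were Ppp3cb (1.51), a calcineurin subunit, Camk2b (0.64), Prkca (0.62) and the kinase gene Ptk2b (-0.83). The changes of Camk2b and Prkca were close to the 0.58 by which DESeq2's size factors moved the median gene. In SMART-Seq2 Ptpn5 (-3.89), a phosphatase that acts on Grin2b, Kalrn (-3.42) and Rasgrf2 (-2.71), both exchange factors for small GTPases, were also lower.

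Of the partners and trafficking genes, in SCRB-seq 1 of 5 tested was higher and 1 lower (median -0.53), beside 30.2% and 27.7% over all genes. In SMART-Seq2 it was 1 of 11 each way (median -0.14), beside 1.45% and 2.64%. Lin7a, a component of receptor transport complexes, was higher in both (1.42, SE 0.42, edgeR adjusted p 0.00295, and 3.06, SE 0.54, adjusted p 9.34e-04). Nlgn1, a synaptic adhesion protein, was lower in SCRB-seq (-1.25) and Lrfn2, another one, in SMART-Seq2 (-3.91). Of genes that supply glutamate and its co-agonists, 1 of 3 tested was higher in SCRB-seq, the glial glutamate transporter Slc1a3 (2.57, SE 0.48, edgeR adjusted p 4.92e-06), beside the 30.2% higher over all genes. In SMART-Seq2 edgeR called 0 of 9. Slc1a3 alone had an unadjusted p under 0.05 there (0.0398, log2 fold change 2.86).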

How the data were processed

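Per the labels' protocols, nuclei were sorted into plates and made into SCRB-seq or SMART-Seq2 libraries. All deposited tables used here hold whole-number counts per gene and well or nucleus (UMI counts for the droplet library), as the authors left them. The genome builds were hg19 and mm10 per the submitters' processing notes, and the droplet reference was mm10_premrna per the file headers. The aligner, the use of strand and the use of UMIs in SCRB-seq were not given in the sources used here. CPM are counts scaled to a total of 1e6 mouse counts per well, nucleus or pooled group. The SCRB-seq table also lists human genes, which were left out of totals and tests.

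Wells were compared with edgeR 4.0.16 in R 4.3.3: TMM scaling, filterByExpr, quasi-likelihood F tests and Benjamini-Hochberg adjustment over all mouse genes tested, with a threshold of 0.05. SE is the absolute log2 fold change divided by the root of F. DESeq2 1.42.0 was an alternative, and the scripts were tested on simulated data. FFPE against frozen is the mean of the 3 methods minus frozen. Plate and droplet groups are 1 sample each and have no test, and no doublet caller was run. Intervals are exact Poisson (levels), exact binomial (shares) and exact conditional (ratios) at 95%, and cover counting error only. Nuclei were thinned to 10000 counts on plates and to 300 UMIs in droplets. Of the 7031 droplet nuclei, 131 had a summed total that differed from the annotated one, by at most 1 UMI. The batch 3 plate table used here held 0 nuclei.

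The members and all gene lists were chosen with earlier results of these data known. Named were the 6 members, the 3 genes most like each in the droplet classes, at most 4 genes per pathway list and assay (those past the threshold with the largest fold), and markers beside a member they move with. Camk2b, Prkca, Ptk2b and Rasgrf2, and Camk4 in SMART-Seq2, were named after their values were seen. Alternatives were DESeq2 size factors, no filter, DESeq2's Wald test, a term for nuclei number, wells of 1 size and leaving out each SMART-Seq2 well. Fits with the well barcode as a block and without the mineral oil pool of 10 nuclei, the test of 100 against 10 nuclei and the Gabra6 split of batch 2 alone were added after seeing the data.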

Additional observations from a re-analysis of the deposited data

Results flagged for a closer look

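In 19 of 42 groups of 8 SCRB-seq wells, 1 well stood apart from the other 7 by Dixon's test at 95%. Many of these groups hold only a few counts, and a well with the only count of its group stands apart by construction. The test's nominal chance rate of about 1 in 20 groups therefore cannot be set against 19 of 42. For Grin1 the wells were 824.4 CPM after heated xylene at 100 nuclei (65 counts, next well 346.5), 1559.4 CPM after mineral oil at 10 (25 counts, next 152.9), 682.0 CPM after mineral oil at 100 (56 counts, next 341.6) and 336.8 CPM after room-temperature xylene at 10 (42 counts, next 159.0). For Grin2a they were a low frozen well of 10 nuclei at 162.2 CPM (3 counts, next 624.6), and high wells at 2370.3 CPM after mineral oil at 10 (38 counts) and 1434.3 CPM after room-temperature xylene at 10 (69 counts). The highest Grin1 and the highest Grin2a value were in the same mineral oil well of 10 nuclei, which held 16032 mouse counts. For Grin2b it was a frozen well of 10 nuclei at 1863.0 CPM (70 counts, next 1190.4).

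For Grin2c the wells were 56.8 CPM in a frozen well of 10 nuclei (1 count), 51.5 CPM in a frozen well of 100 (3 counts) and 460.0 CPM after room-temperature xylene at 100 (35 counts, next 254.8). For Grin2d they were 47.9 CPM in a frozen well of 100 nuclei (8 counts), 12.8 CPM after heated xylene at 10 (1 count), 63.4 CPM after heated xylene at 100 (5 counts) and 46.2 CPM after room-temperature xylene at 10 (3 counts). For Grin3a they were 169.1 CPM after heated xylene at 100 (14 counts), 48.6 CPM after mineral oil at 10 (1 count), 310.8 CPM after mineral oil at 100 (10 counts) and 43.4 CPM after room-temperature xylene at 10 (1 count).

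The contrast between methods differed between wells of 100 and 10 nuclei by edgeR's interaction test for 4 pairs of gene and contrast, where 36.2% (mineral oil against heated xylene), 17.3% (heated against room-temperature xylene) and 39.2% (mineral oil against room-temperature xylene) of 2511 genes passed. Each of the 4 involves a pool of 10 nuclei with 0 counts of the gene, and the pool and the number of nuclei cannot be told apart. For Grin2b the adjusted p was 0.0187 in mineral oil against heated xylene and 0.0380 in mineral oil against room-temperature xylene. For Grin2c it was 0.000599 in heated against room-temperature xylene and 0.000212 in mineral oil against room-temperature xylene.

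Human genes are listed in the SCRB-seq table beside the mouse genes. Human GRIN2A had 35 counts in 20 of 48 FFPE wells, against 3 counts in 3 of 16 frozen wells, and human GRIN2B had 8 counts in 6 FFPE wells, against 0 in frozen wells. All human genes together made up 118478 CPM of all counts in FFPE wells and 20760 CPM in frozen wells.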

How the results depend on the processing

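Of the 3 members called between FFPE and frozen SCRB-seq wells, 1 was called in wells of 10 nuclei alone, where 61.0% of all tested genes were, Grin2c was filtered out and Grin2a had an edgeR adjusted p of 0.0838. Between mineral oil and heated xylene 2 members were called, and 1 with DESeq2 size factors (6.48% of all genes), 1 with DESeq2's Wald test (8.89%), 1 without the mineral oil pool of 10 nuclei (7.98%) and 0 in wells of 10 nuclei alone (20.8%), Grin2c being lost under both DESeq2 settings (adjusted p 0.0667 and 0.0523). For heated against room-temperature xylene the count went from 1 to 0 in wells of 10 nuclei alone (2.75%), and for mineral oil against room-temperature xylene from 1 to 0 there (19.1%) and without the mineral oil pool of 10 (7.61%). In wells of 10 nuclei alone Grin2b and Grin2c were not tested between methods, since they did not pass the filter on low counts. Of plate members, Grin2c and Grin2d had pooled ratios to frozen with counting intervals above 1 in FFPE batch 2 (18.9 and 2.14). In batch 1 only Grin2c did (3.62). Most Grin2d counts of each batch lay in 1 nucleus, and plate groups have no test. Thinned, Grin2c was found in a larger share of nuclei in both FFPE batches than in frozen nuclei. The cause was not tested for the other changes.

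Directions that reversed were all of values that passed no test. Grin2a in mineral oil against heated xylene was 0.01, and -0.0848 with DESeq2 size factors, -0.30 without a filter, -0.0852 by the Wald test, -0.50 in wells of 100 nuclei and -0.37 without the mineral oil pool of 10. In heated against room-temperature xylene it was 0.07, and -0.0305 with DESeq2 size factors and -0.0307 by the Wald test. In mineral oil against room-temperature xylene it was 0.08, and -0.12 with DESeq2 size factors, -0.17 without a filter, -0.12 by the Wald test, -0.39 in wells of 100 nuclei and -0.31 without the mineral oil pool of 10. Grin2c in the last contrast was -0.50, and 0.24 in wells of 100 nuclei and 0.17 without the mineral oil pool of 10. Leaving out each SMART-Seq2 well gave ranges of -0.64 to 0.0313 for Grin2a and -0.16 to 0.51 for Grin2b in heated against room-temperature xylene, and -1.01 to 0.66 for Grin2c and -2.33 to 0.41 for Grin3a in mineral oil against room-temperature xylene. All genes called between FFPE and frozen SMART-Seq2 wells fell from 372 to between 162 and 187 without a frozen well. Without a filter the SCRB-seq calls rose from 17 higher and 75 lower to 1149 and 2266 (mineral oil against heated xylene), from 11 and 10 to 1252 and 1647 (heated against room-temperature xylene), from 27 and 84 to 762 and 2163 (mineral oil against room-temperature xylene), and from 447 and 410 to 1488 and 3297 (FFPE against frozen). DESeq2's Wald test called 331 higher and 299 lower in FFPE SMART-Seq2 wells, against 132 and 240 by edgeR. Of 393 alternative values of members, 357 kept direction and side of the threshold.

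No source says that wells of different pools with the same barcode share nuclei or a day. Their deviations correlated with a median r of 0.105 over 224 pairs (-0.0737 to 0.597; 118 pairs above 0.1), against -0.0135 for 1568 pairs of different barcodes, a hint from the data and not the design. Grin2c CPM by barcode had r from -0.311 to 0.722 between pools with its counts, and 0.692 between mineral oil and room-temperature xylene at 100 nuclei (8 wells each). With the barcode as a replicate block, 4 members were called between FFPE and frozen wells, Grin1 (-0.86, edgeR adjusted p 0.0261) being added, where 58.7% of all tested genes were called. In the method contrasts 2, 1 and 1 were called, as without it, beside 9.63%, 2.04% and 9.91% of all genes. Under the replicate block Grin2a was -0.0868 in mineral oil against heated xylene and -0.029 in mineral oil against room-temperature xylene. Depth limits Grin2d in all wells, Grin3a in SCRB-seq wells, and each gene in the mineral oil pool of 10 nuclei, where 3 counts are 26.0 CPM.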
